A study of Mus musculus with 2 samples.

Results

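Multiciliated epithelial nuclei were nuclei that carried transcripts of motile cilia, and 180 of them were found among 16477 kept nuclei of epididymal white adipose tissue (WAT), a visceral fat of male mice that lies against the epididymis. They were chosen by their counts of 4 genes. Dnah9 encodes a heavy chain of the outer dynein arm, Hydin a protein of the central apparatus, Cfap61 a protein of the radial spokes, and Foxj1 the transcription factor that turns on motile cilium genes. A kept barcode had at least 500 unique molecular identifiers (UMIs, each standing for 1 captured RNA molecule), more than 400 genes and under 0.5% of UMIs from mitochondrial genes. A ciliated nucleus was a kept barcode in which the 4 genes together gave at least 0.15% of UMIs and at least 5 UMIs. Since this rule reads the same counts that are described here, ciliated nuclei and other nuclei are compared as a description, with no test.

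The tissue came from male C57BL/6N mice, 8 weeks old at the start, that were fed a high-fat diet (HF). Injections, 3 per week, began after 6 weeks on it and ran for 8 more. HF-PBS mice received PBS, and HF-HHT mice received homoharringtonine (HHT), a plant alkaloid that blocks protein synthesis. Each condition gave 1 library of nuclei from frozen tissue of 3 pooled mice, stained with DAPI, flow-sorted and captured with the 10x Genomics 3′ assay. With 1 library per condition, the treatment, the pooled mice, the dissection and the library cannot be told apart. The libraries held 76197757 UMIs (HF-PBS) and 73313558 UMIs (HF-HHT) over all barcodes, and kept nuclei had a median of 4073 and 4007 UMIs. Their barcode sets shared 20 kept barcodes, and 0 of the 180 ciliated nuclei had a barcode that was kept in HF-PBS.

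Motile cilia are beating organelles built on an axoneme, a ring of outer microtubule doublets around a central pair. Dynein arms on the doublets are the motors, radial spokes and the nexin-dynein regulatory complex set the beat, and intraflagellar transport carries parts along the shaft. Multiciliated cells grow many such cilia at once and are known from the airways, the ventricles of the brain, the oviduct and, in males, the efferent ducts between testis and epididymis. Fat cells and macrophages do not form motile cilia. Most other cells carry at most a single primary cilium, which shares its transport machinery with motile cilia and lacks most dynein arms.

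The rule genes lie on separate chromosomes except for Dnah9 and Foxj1. In GRCm38 coordinates, Dnah9 lies at chr11:65831282-66168551 and Foxj1 at chr11:116330704-116335399, both on the minus strand. Hydin lies at chr8:110266977-110610253 and Cfap61 at chr2:145934784-146215039, both on the plus strand. Since many cilium genes were read in the same nuclei, their promoters were searched for GTTGCC, a short core of the X-box that RFX transcription factors bind in cilium genes, on both strands. RefSeq windows of 300 bases (GRCm38.p6, from 250 before to 50 after a start) were at hand for 106 of 136 axoneme and rule genes, and none was given for Foxj1. GTTGCC stood in a window of 47 of these 106 genes (44.3%) and of 23 of 48 genes of intraflagellar transport, the BBSome and the transition zone (47.9%). Its share was 14.1% of all 27025 genes with a window, 12.5% of all 32851 windows, and 10.5% of 57 epithelial, duct and Hox genes. The longer GTTGCCA, which holds GTTGCC and so overlaps it, gave 23.6% of axoneme and rule genes against 5.02% of all genes. TGTTTAC, letters of the forkhead family to which Foxj1 belongs, gave 4.72% against 4.05%.

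The 150 bases before the start of 4 genes are shown because 3 of them carry GTTGCCA or its reverse complement close to the start, and the fourth, a rule gene, does not carry even GTTGCC there. They were chosen after the matches were seen, capitals mark GTTGCCA or its reverse complement, and each is written 5′ to 3′ on the strand of its gene. Tekt1 has another annotated start, and the 150 bases before that one (chr11:72361297-72361446) held neither GTTGCC nor GTTGCCA. The match began 14 bases before the start in Hydin, 12 in Drc1, a subunit of the nexin-dynein regulatory complex, and 15 in Tekt1, a tektin of the doublets.
Hydin (chr8:110266827-110266976, plus strand): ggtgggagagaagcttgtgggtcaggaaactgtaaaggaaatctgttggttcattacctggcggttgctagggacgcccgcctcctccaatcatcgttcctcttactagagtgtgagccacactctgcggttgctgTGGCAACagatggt
Drc1 (chr5:30281243-30281392, plus strand): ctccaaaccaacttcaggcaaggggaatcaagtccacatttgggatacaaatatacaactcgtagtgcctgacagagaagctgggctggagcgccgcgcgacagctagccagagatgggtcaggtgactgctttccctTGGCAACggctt
Tekt1 (chr11:72361883-72362032, minus strand): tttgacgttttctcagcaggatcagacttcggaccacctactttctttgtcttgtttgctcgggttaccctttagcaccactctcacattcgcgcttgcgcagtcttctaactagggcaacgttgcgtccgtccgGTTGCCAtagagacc
Cfap61 (chr2:145934634-145934783, plus strand): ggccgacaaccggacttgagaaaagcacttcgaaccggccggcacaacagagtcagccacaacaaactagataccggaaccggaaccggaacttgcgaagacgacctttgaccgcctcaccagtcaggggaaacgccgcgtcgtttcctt
A match describes letters in a window and not a bound site.

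All 180 ciliated nuclei came from the HF-HHT library, where they made up 2.29% of 7859 kept nuclei (exact binomial 95% interval 1.97 to 2.65%). HF-PBS gave 0 of 8618 kept nuclei, which allows a share of up to 0.0348% (3 nuclei). Intervals here and below cover counting error only and say nothing of the spread between mice. Those of CPM and ratios, which use UMIs summed over nuclei, leave out the spread between nuclei as well. In HF-PBS, 8565 kept barcodes (99.4%) held 0 marker UMIs and 47 held 1. The single HF-PBS barcode with 5 marker UMIs had 55166 UMIs in all, a share of 0.00906%. In HF-HHT, 7145 kept barcodes held 0 marker UMIs, 470 held 1, 60 held 2 to 4 and 184 held 5 or more. Only 1 library stood behind each share, so no test between the conditions was possible.

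The limit of 0.15% fell in a sparse stretch. Of the 184 kept barcodes with at least 5 marker UMIs, 4 lay below it, at 0.0311, 0.0796, 0.143 and 0.148% of UMIs, and the first members above it lay at 0.151, 0.156 and 0.163%. Another 28 HF-HHT barcodes passed the share with fewer than 5 marker UMIs, all with at most 1235 UMIs, and were left out. Among members the marker share ran from 0.151% over a median of 0.482% to 1.01%. Members were deep, with 775 to 73423 UMIs, a median of 7858 UMIs and a median of 3460 genes. All 180 held Hydin (1 to 64 UMIs, median 13), 179 held Cfap61 (up to 54, median 11.0), 175 held Dnah9 (up to 87, median 11.0) and 151 held Foxj1 (up to 22, median 2).

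**Figure D1:**
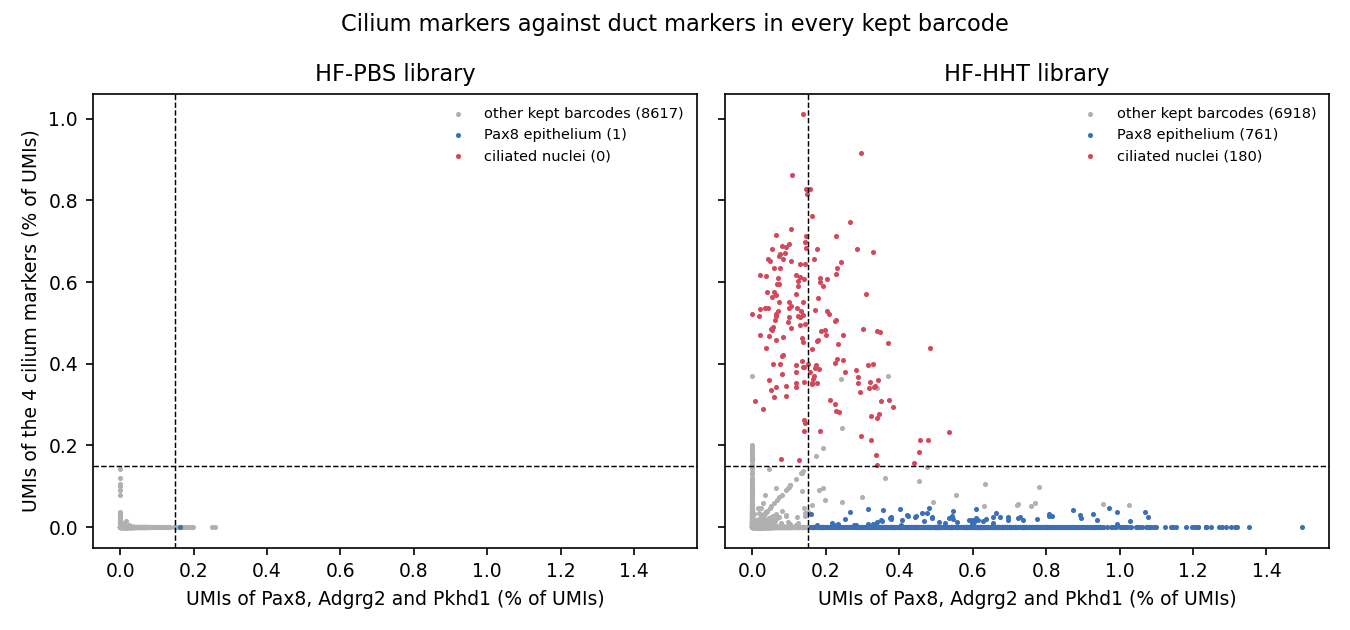
Each point is 1 kept barcode, in HF-PBS (left) or HF-HHT (right), with the share of its UMIs from Pax8, Adgrg2 and Pkhd1 on the x axis and from the 4 cilium markers on the y axis, both in percent. Dashed lines mark 0.15%. The 180 ciliated nuclei sit above the line in HF-HHT, the 761 nuclei of the Pax8 epithelium along its base, and gray points above the line had fewer than 5 marker UMIs.

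Ciliated nuclei were compared first with a non-ciliated epithelium of the same library, called Pax8 epithelium here. Pax8 is a transcription factor of the kidney and genital ducts, Adgrg2 a receptor of the efferent ducts, and Pkhd1 the fibrocystin of ciliated tubules. Nuclei with at least 0.15% and 5 UMIs of these 3 genes, that were no members and held under 0.05% of the cilium markers, numbered 761 in HF-HHT (9.68% of kept nuclei) and 1 in HF-PBS. The rules overlapped: 81 of 180 ciliated nuclei (45.0%) also met the Pax8 rule and 136 held at least 1 Pax8 UMI. These 81 nuclei were deeper (median 9568 UMIs against 6951 in the other 99) and had a higher median doublet score by Scrublet, 0.0898 against 0.0334. Doublets were kept in the values below, and removing the highest scores took out 31 of the 180 nuclei (17.2%), against 6.48% of all kept HF-HHT nuclei and 13.4% of Pax8 epithelium. The part of doublets in the duct transcripts of ciliated nuclei was not tested.

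Summed over nuclei, the 129 genes of 7 axoneme lists, none of them a rule gene, gave 40865 CPM (counts scaled to a total of 1000000 UMIs) in ciliated nuclei. The same sum was 5706 CPM in Pax8 epithelium, 972 in 221 mesothelial nuclei and 597 in 1586 macrophage nuclei of the library, which were chosen by 4 markers each (Msln, Upk3b, Muc16 and Upk1b; Csf1r, Adgre1, Mrc1 and F13a1). Against all 7679 other kept nuclei (1119 CPM) the sum was 36.5-fold higher, a log2 ratio of 5.19 (95% interval 5.18 to 5.21). Against Pax8 epithelium it was 7.16-fold higher (log2 2.84, 2.82 to 2.86). A single gene held most of the Pax8 epithelium's sum: without Dcdc2a it was 2118 CPM, and the ratio became 18.3-fold (log2 4.19).

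Gene by gene, 122 axoneme genes had at least 20 UMIs over both classes, and 115 of them were at least 2-fold higher in ciliated nuclei than in Pax8 epithelium, with 0 at least 2-fold lower. Over all 13318 genes measured this way, 20.5% were at least 2-fold higher and 13.5% at least 2-fold lower, with a median log2 ratio of -0.06. The median over the 122 axoneme genes was 5.29, with genes at 0 in Pax8 epithelium set at a floor of 3 UMIs. Against mesothelial nuclei 118 of 123 measured axoneme genes were at least 2-fold higher (26.3% of all measured genes), and against macrophages 121 of 125 (30.6% of all). CPM are not scaled by gene length, so each gene is compared across classes and not with other genes.

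**Figure D2:**
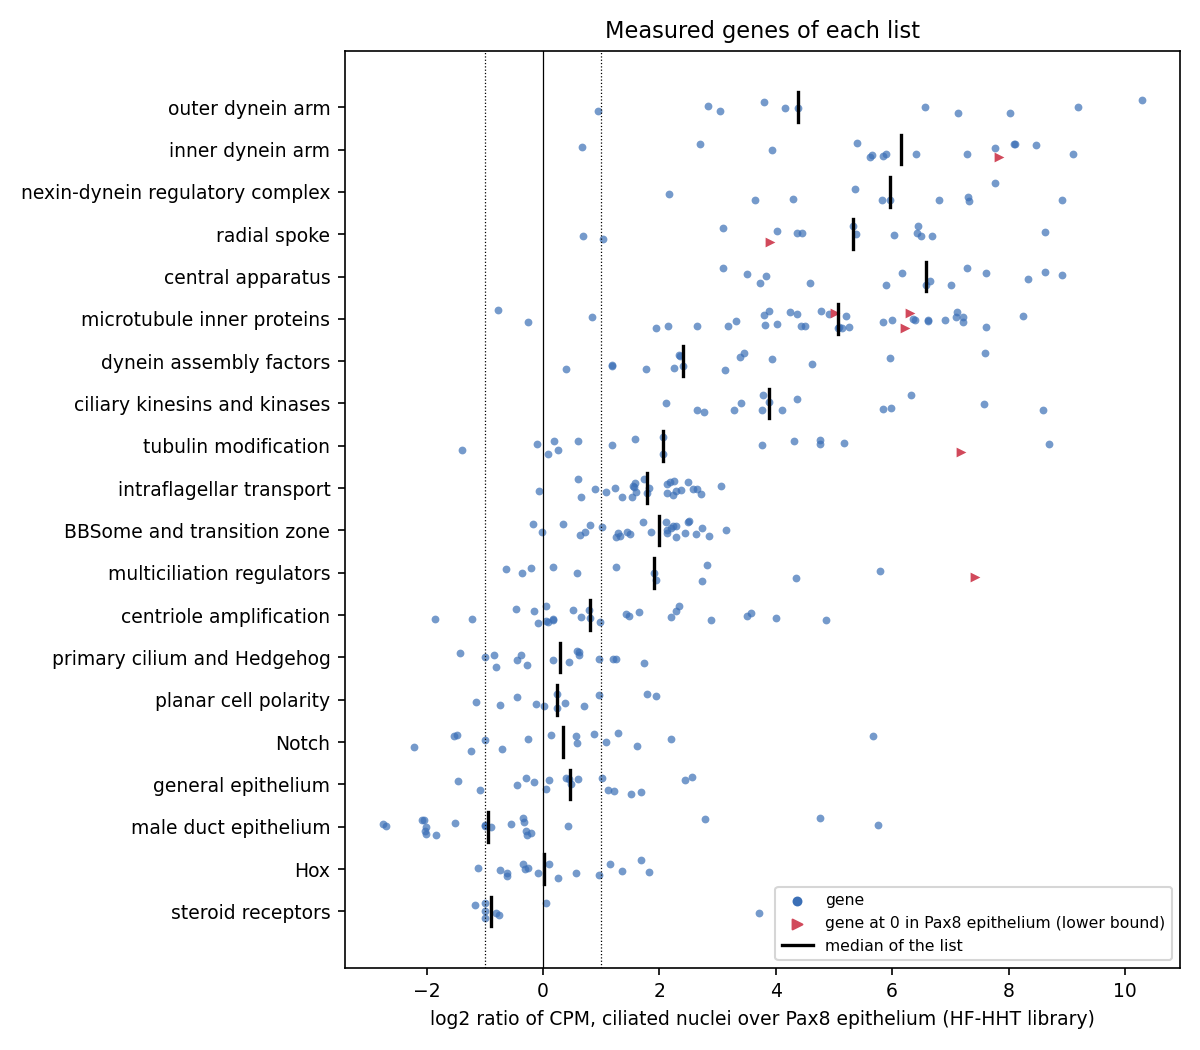
Each point is 1 measured gene, placed by its log2 ratio of CPM in ciliated nuclei over Pax8 epithelium (x axis) in its list (y axis), both from the HF-HHT library. Black bars mark list medians, dotted lines 2-fold, and red triangles lower bounds for genes at 0 in Pax8 epithelium. Axoneme medians lie between 2.40 and 6.59, and the male duct median lies at -0.94.

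The motors of the axoneme are its dynein arms. Of 11 measured genes of the outer dynein arm and its docking complex 10 were at least 2-fold higher. The median log2 ratio over the list was 4.39. Dnaic1, an intermediate chain, gave 615 UMIs (321 CPM) in ciliated nuclei and 1 UMI in Pax8 epithelium, a log2 ratio of 10.29 with a wide interval of 7.80 to 15.59. Armc4, a docking protein, stood at 604 against 1.03 CPM (log2 9.20, 7.84 to 11.08). The exception was Dnah5, the partner heavy chain of Dnah9 in the outer arm, at 951 CPM in ciliated nuclei and 496 CPM in Pax8 epithelium (log2 0.94, 0.85 to 1.03). Dnah11, another outer arm heavy chain, stood at 2057 against 148 CPM (log2 3.80, 3.67 to 3.93). Both were low in the other classes: Dnah5 was 3.66 CPM in mesothelial nuclei and 5.33 in macrophages, and Dnah11 1.83 and 4.54.

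Of 16 measured inner arm genes 15 were at least 2-fold higher (median log2 6.15). The heavy chain Dnah12 gave 5426 UMIs in ciliated nuclei and 20 in Pax8 epithelium (2832 against 5.13 CPM, log2 9.11, 8.48 to 9.82). Dnah6 stood at 1180 against 3.34 CPM and Dnah3 at 636 against 2.31 CPM. The list's lowest member was Dnhd1, at 24.5 against 15.4 CPM, close to its 21.8 CPM in free RNA. Reads of the near-identical Dnah7a, Dnah7b and Dnah7c, and of Rsph3a and Rsph3b, can be split or shared by the counting, so their values are uncertain. The machinery that preassembles dynein arms in the cytoplasm had a lower median (log2 2.40), with 14 of 15 genes at least 2-fold higher. Within it Dnaaf3 (99.2 against 0.513 CPM) and Dnaaf1 (48.0 against 0.770 CPM) had the highest ratios, and Pih1d1, which other cell types use as well, lay at 12.5 against 9.5 CPM.

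The complexes that set the beat come next. All 11 measured genes of the nexin-dynein regulatory complex were at least 2-fold higher (median log2 5.97). Tcte1 led with 239 UMIs against 1, Drc1 stood at 203 against 1.28 CPM, and Gas8 was lowest at 44.9 against 10.0 CPM. Ccdc39 and Ccdc40, the ruler proteins that set the spacing along the doublets, stood at 429 against 8.73 and at 196 against 2.31 CPM. Of 15 radial spoke genes 14 were at least 2-fold higher (median 5.33), among them the spoke head genes Rsph1 (159 against 1.54 CPM) and Rsph4a (156 against 1.80 CPM). All 15 measured genes of the central apparatus were (median 6.59). Spag17 stood at 302 against 0.770 CPM, Spag16 at 1323 against 4.11 CPM and Spef2 at 1105 against 11.0 CPM.

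Proteins inside and along the doublets formed the longest list, and 36 of its 39 genes were at least 2-fold higher (median 5.07). Tekt1 stood at 153 against 1.03 CPM and Cfap43 at 1063 against 5.39 CPM. The lowest member was Dcdc2a (chr13:25056004-25210706, plus strand), which encodes a doublecortin-domain protein of microtubules and cilia. It gave 2105 CPM in ciliated nuclei and 3587 CPM in Pax8 epithelium (log2 -0.77, -0.82 to -0.72), against 9.15 CPM in mesothelial nuclei and 20.4 CPM in macrophages. Without Dcdc2a the list's summed ratio was 15.1-fold. The other members short of 2-fold, Lrrcc1 (log2 -0.25) and Nme7 (0.85), were looked up after their values were seen.

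Enzymes work along the axoneme. All 15 measured kinesins and kinases of motile cilia were at least 2-fold higher (median log2 3.88). Nek10 stood at 397 against 1.03 CPM, Stk33 at 788 against 4.11 CPM, and Kif19a, a kinesin that limits cilium length, at 41.2 against 0.513 CPM. Of 17 enzymes that modify tubulin 11 were at least 2-fold higher and 1, Hdac6, lower (14.1 against 37.0 CPM, log2 -1.39). Ttll6, which adds glutamates to axonemal tubulin, gave 203 UMIs against 1. Ttll8, which adds glycine, gave 214 UMIs against 0 and so was at least 145-fold higher against a floor of 3 UMIs.

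Genes that primary cilia also use differed less. Of 27 genes of intraflagellar transport 23 were at least 2-fold higher, and their median log2 ratio was 1.78 with a range of -0.07 to 3.06. Ift88 led with 472 against 56.5 CPM (log2 3.06, 2.85 to 3.28), while Ttc21b was level at 24.5 against 25.7 CPM. Of 28 genes of the BBSome and the transition zone, the gate at the cilium base, 22 were at least 2-fold higher (median 1.99). Nphp4 stood at 45.4 against 5.13 CPM and Bbs7 at 95 against 13.1 CPM, and Invs lay at 81.9 against 92.1 CPM. For Hedgehog signaling and the primary cilium membrane, 3 of 16 genes were higher and 1 lower (median 0.30). Tulp3, which carries receptors into cilia, stood at 169 against 51.1 CPM and Arl13b at 130 against 56.7 CPM, and Gli3 at 11.0 against 29.3 CPM, short of 2-fold (log2 -0.73) with Pax8 epithelium at 0.30%. Of 12 planar cell polarity genes 2 were higher, Vangl1 (69.4 against 18.0 CPM) and Fzd3 (65.2 against 19 CPM), and 1 lower, Prickle1 (148 against 328 CPM). For the Hedgehog and polarity lists the shares at least 2-fold higher, 3 of 16 and 2 of 12, stood near the 20.5% of all genes.

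Regulators that establish the multiciliated fate were split. Of 13 measured genes 8 were at least 2-fold higher (median log2 1.90) and 0 lower. Trp73, an upstream activator of the fate, gave 255 UMIs in 116 of 180 ciliated nuclei (133 CPM) and 0 UMIs in 761 Pax8 nuclei, at least 173-fold higher. Rfx2 stood at 313 against 15.4 CPM (log2 4.34), Rfx3 at 1189 against 310 CPM (log2 1.94), and Myb at 159 against 23.9 CPM (log2 2.73). Rfx7, E2f5 and Grhl2 were at or below their level in Pax8 epithelium, at log2 -0.36, -0.21 and -0.64. Mcidas and Ccno, which start centriole amplification, were hardly counted. Mcidas gave 1 UMI in each class, and Ccno 3 UMIs in ciliated nuclei and 7 in Pax8 epithelium. Gmnc, which acts upstream of both and was looked up after its values were seen, gave 132 UMIs in 79 of 180 ciliated nuclei (43.9%, 36.5 to 51.5%) and 38 UMIs in 31 of 761 Pax8 nuclei (4.07%, 2.78 to 5.73%).

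Centriole amplification, the step that makes a basal body for every cilium, was less uniform, with 11 of 26 measured genes at least 2-fold higher, 2 lower and a median of 0.80. Ccdc78 stood at 22.4 against 0.770 CPM, Cep290 at 268 against 58.3 CPM and Ccp110 at 133 against 18.0 CPM. Pcm1, a satellite protein of all centrosomes, was level at 352 against 339 CPM, and Poc1a was lower (3 UMIs against 22, log2 -1.85), though less than 2-fold (-0.77) without the 81 nuclei of both rules. Deup1, the scaffold of the deuterosome on which new centrioles form, gave 53 UMIs in 29 of 180 ciliated nuclei (16.1%, 11.1 to 22.3%) and 22 UMIs in 10 of 761 Pax8 nuclei (1.31%, 0.632 to 2.40%). It gave 14 UMIs in 13 of 6906 other nuclei (0.188%, 0.100 to 0.322%). One ciliated nucleus held 11 Deup1 UMIs, and another held 9 together with 14 UMIs of Cdc20b, a neighbour of the Mcidas and Ccno locus, and 1 UMI of Mcidas. In Pax8 epithelium the highest nuclei held 6 and 5 Deup1 UMIs. Cdc20b was seen in no other ciliated nucleus, and it was singled out after the values were seen.

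The Notch pathway, through which neighbouring cells decide between ciliated and non-ciliated fates, had 5 of 16 measured genes at least 2-fold higher and 4 lower. Over all measured genes 20.5% were higher and 13.5% lower, and counts from 16 genes do not set the list apart from these shares. The ligand Jag2 gave 100 UMIs against 4 (52.2 against 1.03 CPM, log2 5.67, 4.27 to 7.57), and the ligand Jag1 stood at 176 against 38.5 CPM (log2 2.20). Among receptors, Notch1 stood at 85.1 against 56.7 CPM and Notch2 at 108 against 215 CPM. The effector Heyl gave 2 UMIs against 19, and the coactivator Maml3 stood at 352 against 974 CPM. Rbpj (144 against 414 CPM), Notch2 and Maml2 were also plentiful in free RNA of the library, at 546, 223 and 608 CPM, and in macrophages. The ratio of Rbpj (log2 -1.52) fell short of 2-fold without the highest doublet scores (-0.63) and with Pax8 epithelium at 0.30% (-0.87).

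**Figure D3:**
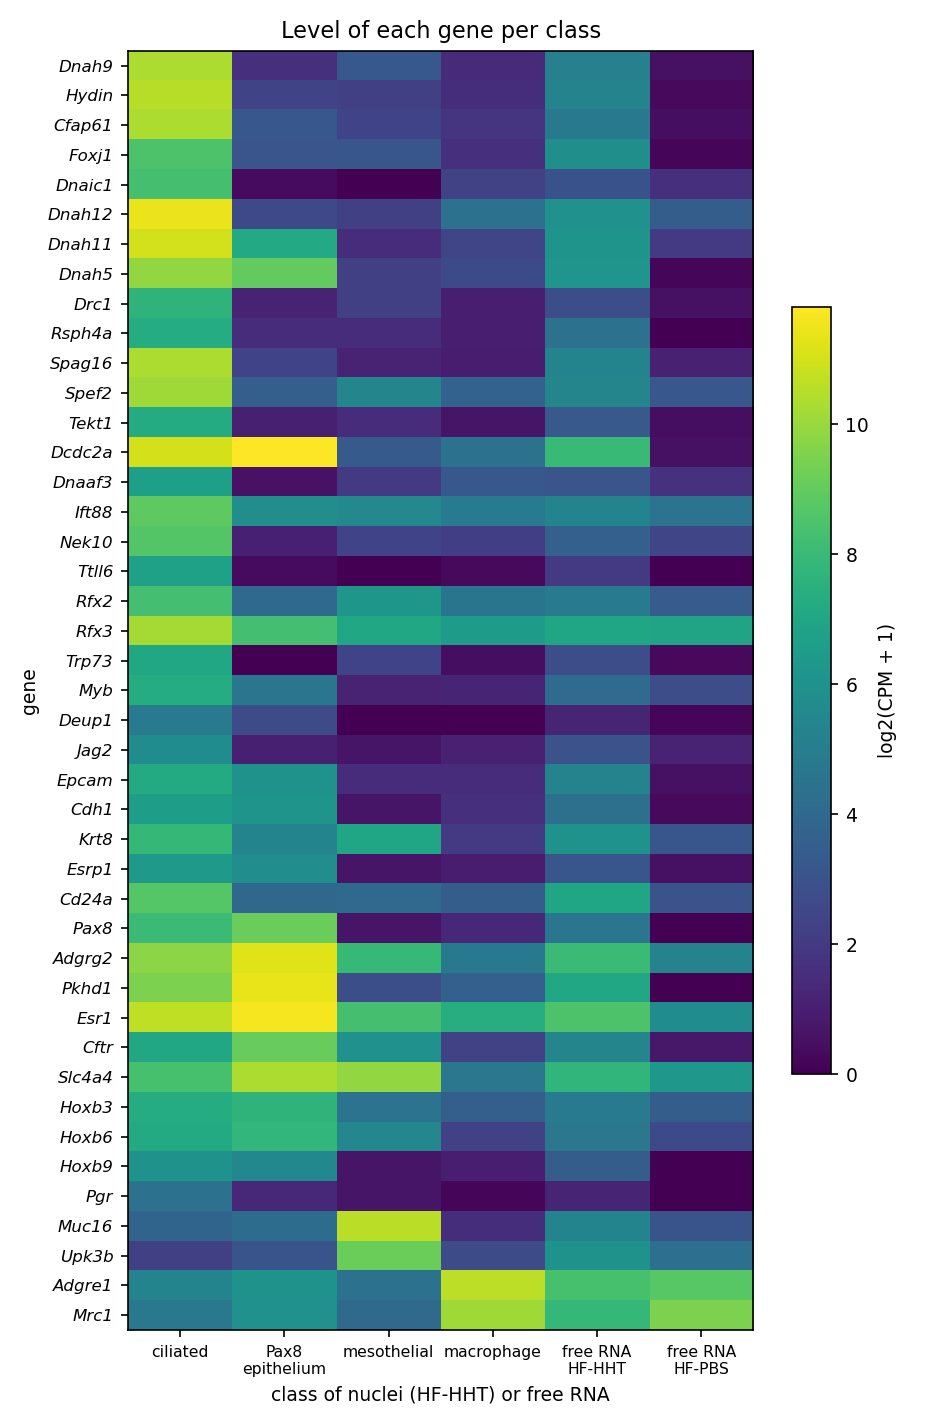
Rows are genes, columns are classes of nuclei in HF-HHT and the free RNA of either library, and the color gives log2(CPM + 1). Cilium genes are bright in the ciliated column, Dcdc2a and Dnah5 also in Pax8 epithelium, and the Hoxb genes in both epithelial columns, while mesothelial and macrophage markers are bright in their own classes.

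Ciliated nuclei and the Pax8 epithelium both carried transcripts of general epithelial genes. The list summed to 1571 CPM in ciliated nuclei, 1216 in Pax8 epithelium, 471 in mesothelial nuclei and 36.7 in macrophages. Against mesothelial nuclei 12 of 18 measured genes were at least 2-fold higher in ciliated nuclei (26.3% of all measured genes) and 3 lower. The share of all genes lower against mesothelial nuclei was not computed. Against Pax8 epithelium 7 of 18 general epithelial genes were at least 2-fold higher, 2 lower and the others within 2-fold, with a median log2 ratio of 0.47. Over all measured genes the shares were 20.5% and 13.5%. Krt8 stood at 234 against 39.8 CPM (log2 2.56), Krt18 at 71.0 against 22.1 CPM, Cldn3 at 43.3 against 7.96 CPM and Epcam at 146 against 67.0 CPM (log2 1.12, 0.82 to 0.97 under the 3 alternatives that took it below 2-fold). Cdh1, the adhesion molecule E-cadherin, stood at 96.6 against 68.8 CPM and the splicing factor Esrp1 at 83.0 against 54.4 CPM. In macrophages Epcam was 1.81, Cdh1 2.15 and Esrp1 0.907 CPM. The transcription factor Ehf went the other way, at 69.4 against 191 CPM (log2 -1.46).

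Of 22 measured genes of the male ducts 9 were at least 2-fold lower in ciliated nuclei and 3 higher. The list's median log2 ratio was -0.94. The lower side held Slc4a4, a bicarbonate cotransporter, at 326 against 1323 CPM (log2 -2.02), the chloride channel Cftr at 134 against 539 CPM (log2 -2.01), the endocytic receptor Lrp2 at 186 against 665 CPM (log2 -1.84) and the potassium channel Kcnj16 at 50.1 against 327 CPM (log2 -2.70). The duct transcription factors Pax2 (100 against 147 CPM) and Emx2 (50.6 against 63.4 CPM), looked up after their values were seen, were within 2-fold. The genes on the higher side were Cd24a (410 against 15.1 CPM, log2 4.76), the phosphate transporter Slc34a2 (80 UMIs against 3, log2 5.76) and Fxyd2 (31.8 against 4.62 CPM). The 3 genes that chose the Pax8 epithelium are lower in ciliated nuclei in part by that choice, at 263 against 554 CPM (Pax8), 876 against 2402 CPM (Adgrg2) and 707 against 2703 CPM (Pkhd1).

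Some of these duct values came with the 81 nuclei that met both rules. In the 99 ciliated nuclei that did not, Pax2 stood at 99.5 CPM, Emx2 at 47.6, Epcam at 135 and Hoxb6 at 138 CPM, close to the 100, 50.6, 146 and 147 CPM of all 180. Cftr stood at 44.2 CPM in the 99 nuclei and 213 CPM in the 81, and Esr1 at 1220 and 2015 CPM. Without the 31 nuclei of highest doublet score, Pax2 was 113 and Cftr 113 CPM in ciliated nuclei.

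Hox genes, which mark position along the body, were near level. Of 16 measured Hox genes 11 lay within 2-fold, 4 were higher and 1 lower, and the median log2 ratio was 0.01. The shares over all measured genes were 20.5% higher and 13.5% lower. Hoxb3 stood at 158 against 201 CPM, Hoxb6 at 147 against 225 CPM, Hoxd3 at 116 against 123 CPM and Hoxb9 at 65.8 against 44.7 CPM. All 39 Hox genes together gave 888 CPM in ciliated nuclei and 972 CPM in Pax8 epithelium. Mesothelial nuclei had 456 CPM, free RNA of the library 264 CPM and macrophages 54.2 CPM. Of 19 Hox genes measured against mesothelial nuclei, 11 were at least 2-fold higher in ciliated nuclei and 5 lower. Over all genes measured against mesothelial nuclei 26.3% were at least 2-fold higher, and the share lower was not computed. In ciliated nuclei 14 of the 39 Hox genes gave 0 UMIs, namely Hoxa11, Hoxa13, Hoxb1, Hoxb13, Hoxc9 to Hoxc13, Hoxd1 and Hoxd10 to Hoxd13. The share of all genes at 0 was not computed. Steroid receptors were listed together with the coactivators Ncoa1, Ncoa2 and Ncoa3, so the sums of this list are not those of receptors alone. The list summed to 3079 CPM in ciliated nuclei, 5469 in Pax8 epithelium, 2363 in macrophages and 1469 in mesothelial nuclei. Esr1, the estrogen receptor, stood at 1640 against 3258 CPM, and at 162 CPM in macrophages. Pgr, the progesterone receptor, gave 39 UMIs against 6 (20.4 against 1.54 CPM, log2 3.72, 2.47 to 5.26).

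Markers of other ciliated or genital cell types were checked over whole lists. Of 15 airway genes 10 were at 0 in ciliated nuclei, among them Nkx2-1, Foxa1, Scgb1a1 and Cyp2f2, and only Dynlrb2, a dynein light chain of cilia in general, was at least 2-fold above free RNA. Of 32 genes of epididymal principal cells 21 were at 0, among them Lcn5, Crisp1, Defb21 and Gpx5. Srd5a1 (12.5 CPM against 1.87 CPM in free RNA) and Srd5a2 (48.5 against 16.2 CPM), enzymes of steroid metabolism, were at least 2-fold above free RNA, and Pax8 epithelium had 2.05 and 225 CPM of them. Of 10 genes of clear and basal cells 7 were at 0, among them Foxi1, Krt5 and Trp63. Atp6v0a4, a proton pump subunit, was at least 2-fold above free RNA (84.6 against 24.9 CPM) and stood at 389 CPM in Pax8 epithelium. Of 9 genes of ependyma and choroid plexus only Ttr and Otx2 were at 0. Sox9 and the water channel Aqp4 were at least 2-fold above free RNA, and Aqp4 gave 127 UMIs (66.3 CPM) against 0 in Pax8 epithelium. Of 30 germ cell genes 4 were at 0, Ldhc, Zpbp2, Izumo1 and Spem1. Zpbp (28.7 against 7.47 CPM), Catsper2 (37.6 against 18.2 CPM) and Catsper3 (10.4 against 2.99 CPM) were at least 2-fold above free RNA. Of 9 measured germ cell genes 5 were at least 2-fold above Pax8 epithelium (20.5% of all measured genes). The germ cell list summed to 288 CPM in ciliated nuclei, 249 in Pax8 epithelium and 145 in free RNA, with a range over nuclei of 0 to 4405 CPM and a median of 187. Prm2, a protamine, gave 15 UMIs and Ddx4 14.

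Markers of other cells of fat tissue stood below their level in free RNA in all lists checked. Macrophage genes summed to 151 CPM in ciliated nuclei against 1291 CPM in free RNA, adipocyte genes to 557 against 4017 CPM, mesothelial genes to 127 against 341 CPM, and dividing cell genes to 77.8 against 379 CPM. Single nuclei ranged widely, from 0 to 4192 CPM of macrophage genes, with a median of 0. Of genes on the Y chromosome, looked up after the other values, Uty, Ddx3y, Kdm5d and Eif2s3y together gave a UMI in 166 of 180 ciliated nuclei (92.2%) at 509 CPM (478 to 542), against 775 CPM in Pax8 epithelium and 656 CPM in HF-PBS.

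Genes outside the lists were ranked too, and the highest ratios included genes of ion channels and adhesion. Dpp6, a subunit of potassium channels, stood at 878 against 0.770 CPM (log2 10.16, 8.61 to 12.43) and Kcnk2, a potassium channel itself, at 698 against 1.28 CPM (log2 9.09). Rp1, a microtubule protein of the photoreceptor axoneme, stood at 1105 against 2.05 CPM, Rgs22 at 1817 against 4.11 CPM, Bbox1, an enzyme of carnitine synthesis, at 428 against 1.03 CPM, and the adhesion gene Dscaml1 at 281 against 0.770 CPM. Wdr95, Lrrc36, Tmem232, Kctd8 and Zbbx were also among the 12 highest ratios, all at log2 8.48 or more, and Wdr95 ranked above Kcnk2. On the lower side stood Slc6a5, a glycine transporter (3 UMIs against 110, log2 -4.17), Prdm6 (3.13 against 42.6 CPM), the bile acid receptor Nr1h4 (3.13 against 41.1 CPM), Baiap2l2 (2.61 against 31.3 CPM) and Crp (4.18 against 39.3 CPM). Cyp2j11 and Cyp2j13, also lower, belong to a gene family whose reads can be split.

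Ciliated nuclei varied in the strength of the program and overlapped little with the other classes. With every nucleus thinned to 1000 UMIs, which left out 1 ciliated and 9 Pax8 nuclei, the 129 axoneme genes took 1.20 to 7.10% of UMIs in ciliated nuclei, with a median of 4.50% and quartiles of 3.70 and 5.40%. In Pax8 epithelium they took 0 to 1.90% with a median of 0.6%, in mesothelial nuclei up to 0.5% and in macrophages up to 0.6%. The ranges of ciliated and Pax8 nuclei thus overlapped between 1.20 and 1.90%. A thinned ciliated nucleus held a UMI of a median of 29.0 axoneme genes, against 3 in Pax8 epithelium. The 81 nuclei that also met the Pax8 rule had a median of 4.2% and the other 99 a median of 4.75%.

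**Figure D4:**
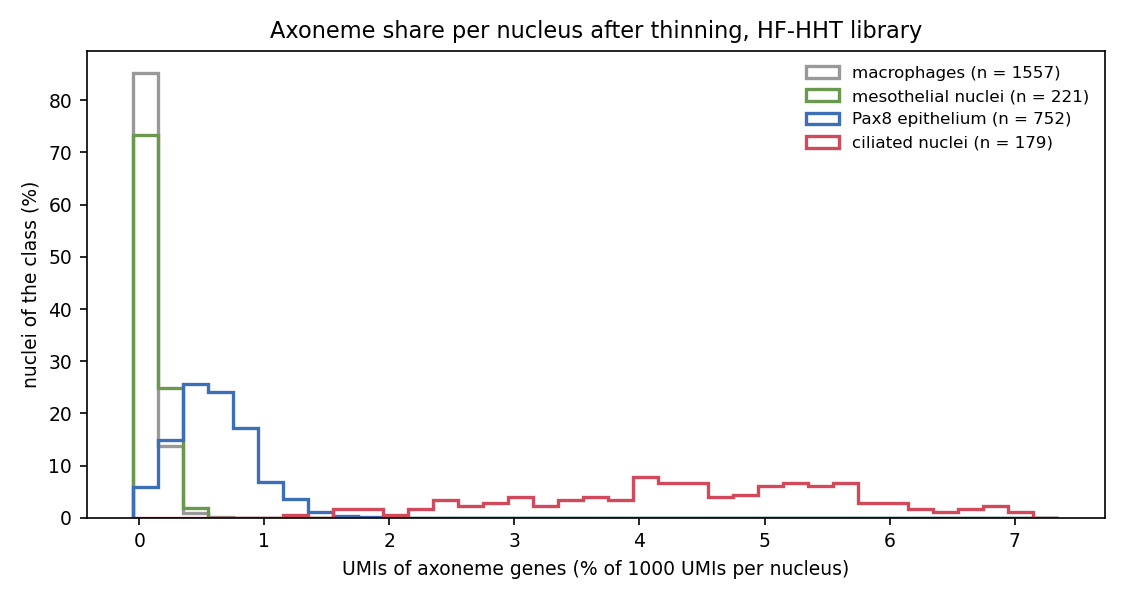
The x axis gives the percent of 1000 thinned UMIs that came from the 129 axoneme genes, and the y axis the percent of nuclei of each class in HF-HHT. Ciliated nuclei spread from 1.20 to 7.10%, while Pax8 epithelium ends at 1.90%, mesothelial nuclei at 0.5% and macrophages at 0.6%.

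After the same thinning, Dnah12 was seen in 90.5% of ciliated nuclei (85.2 to 94.4%), 0.532% of Pax8 nuclei and 2.44% of macrophages, which should lack it. Unthinned, the shares were 100, 2.37 and 6.87%, at median depths of 7858, 4290 and 4612 UMIs. The share of Dnah12 in Pax8 epithelium was thus below that in macrophages. In thinned macrophages the rule genes Dnah9, Foxj1, Hydin and Cfap61 were seen in 0.514, 0.193, 0.385 and 0.385%. In thinned mesothelial nuclei the same 4 genes were seen in 1.81, 0.905, 1.36 and 0%. Dnah12 was seen in 0 of 221 of them (95% interval 0 to 1.66%), and in 2.26% unthinned. The shares of cilium genes in these classes thus differed from gene to gene, and the source of the 2.44% of Dnah12 was not tested. Pax8 epithelium was also chosen to hold few UMIs of the cilium markers, which can lower its share. Dnah5 was seen in 68.2% of ciliated nuclei and 38.3% of Pax8 nuclei against 0.321% of macrophages, and Dnah11 in 88.8% and 12.6% against 0.578%. Cfap44, chosen after its values were seen, stood at 81.6, 9.97 and 0.450%. Unthinned, Dnah5 was seen in 96.7, 77.0 and 2.02% of the 3 classes, Dnah11 in 98.3, 31.7 and 2.40%, and Cfap44 in 98.3, 33.1 and 2.14%. Pax8 was seen in 25.7% of ciliated and 40.8% of Pax8 nuclei and in 0 of 1557 macrophages, which allows up to 0.193% (unthinned 75.6, 82.9 and 0.631%). In Pax8 epithelium that share is set in part by the rule, which used Pax8.

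Cilium transcripts were also free in the HF-HHT library, outside nuclei. In 45001 barcodes of rank 45000 to 90000, far below the 500 UMIs of a kept barcode, the 4 rule genes gave 1261 of 8032163 UMIs in HF-HHT (157 CPM, 148 to 166) and 10 of 8987638 in HF-PBS (1.11 CPM, 0.534 to 2.05). The ratio was 141-fold (76.5 to 295). The 129 axoneme genes stood at 2211 CPM (2179 to 2244) against 597 CPM (581 to 613), and the genes of intraflagellar transport, which every tissue uses, at 779 against 542 CPM. In barcodes with at least 100 and under 500 UMIs the rule genes gave 157 and 1.30 CPM. Duct genes were higher in the same library: Pax8, Adgrg2 and Pkhd1 together stood at 425 CPM in HF-HHT and 37.8 CPM in HF-PBS, where Pax8 and Pkhd1 were at 0. Mesothelial genes stood at 341 against 111 CPM and germ cell genes at 145 against 73.3 CPM, while macrophage genes were lower in HF-HHT (1291 against 4281 CPM). How far the tissue taken, the mice pooled or the treatment set these values was not tested.

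**Figure D5:**
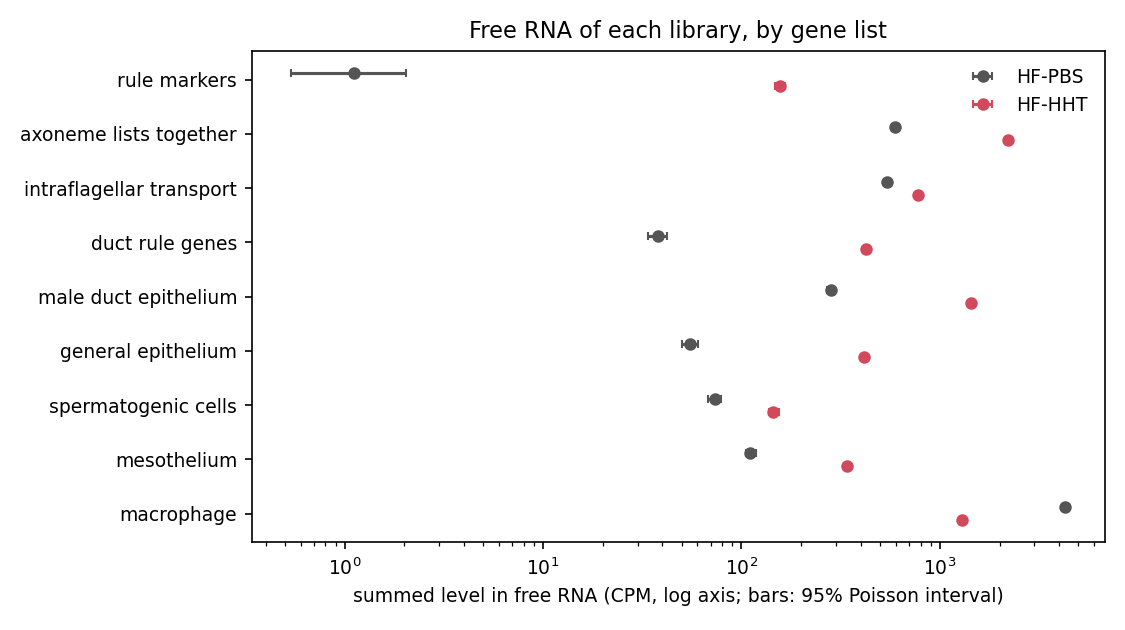
Points give the summed CPM of each gene list in free RNA (log axis) of HF-PBS (gray) and HF-HHT (red), with 95% Poisson intervals as bars. The 4 rule markers differ most, at 1.11 and 157 CPM, and macrophage genes run the other way.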

How the data were processed

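Nuclei of epididymal WAT were measured in 2 libraries. The authors made the deposited UMI counts on the mm10 mouse reference with Cell Ranger (5.0.0 in the submitters' processing notes, 4 in the file headers). They are raw, for 32285 genes and all 6794880 barcodes, empty ones included. On reads in introns, their treatment is not given in the sources read. The study's own labels per nucleus were not used here.

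From these counts, classes were formed by marker rules in Python 3.11.15 (numpy 2.4.6, scipy 1.17.1, pandas 2.3.3), UMIs were summed per class, and CPM and log2 ratios were computed with exact conditional binomial 95% intervals. A gene was measured with at least 20 UMIs over both classes, and a class at 0 was set at 3 UMIs. No test was run, since each condition had 1 library and nuclei are not replicates. Doublets were scored with Scrublet in scanpy 1.11.5 and kept, with removal as an alternative (0.8% per 1000 nuclei). Nuclei were thinned to 1000 UMIs for shares. The ratios and the marker rule were tested on simulated data.

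The members and the 35 gene lists were chosen with earlier results of these data known. Named genes follow a rule. These are the 3 highest and the lowest ratio of each list, the marker genes, up to 8 genes with most UMIs in the lists of regulators, centrioles, ducts, Hox, Notch and steroid receptors, and the 12 highest and 12 lowest ratios outside the lists. The latter needed 50 UMIs in the higher class, 3 in the lower one and a CPM of 2 times that of free RNA. Predicted genes are not named, and genes named otherwise are marked in the text. Alternatives changed the limits, the markers, the scaling (TMM of edgeR 4.0.16 under R 4.3.3, and median-of-ratios), the filter and the treatment of free RNA. Coordinates come from GENCODE vM21 (GRCm38, the build of mm10), matched by identifier for all 611 genes tabled, and promoter windows from RefSeq. Values of 2 genes of these lists are not reported here.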

Additional observations from a re-analysis of the deposited data

Results flagged for a closer look

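In HF-HHT, 23 of 599 barcodes with at least 500 UMIs that failed the limits on genes or mitochondrial UMIs also met the marker rule, outside the nuclei described above. HF-PBS gave 0 of 330 such barcodes, which allows a share of up to 0.909%. These 23 barcodes drew attention as cilium signal outside the main measurement. Their mitochondrial share ran from 0.535 to 7.73% of UMIs, with a median of 0.958%.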

How the results depend on the processing

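No paired analysis was possible because each condition had 1 library. HF-PBS gave 0 ciliated nuclei under all 10 alternatives that changed who was a member, and the HF-HHT share ran from 1.87 to 2.56%. The lowest value, 1.87%, came with the study's upper limits at the 95th percentile of UMIs and genes, which removed 42 of the 180 nuclei (23.3%, against 5.93% of all kept HF-HHT nuclei). The summed axoneme log2 ratio against Pax8 epithelium (2.84) became 2.97 with a marker share of 0.30%, 2.81 with mitochondrial UMIs under 5%, 2.86 without Dnah9 in the rule, 2.87 without Hydin or Cfap61, 3.0 at the 95th percentiles, 2.91 with TMM or median-of-ratios factors (which shift every log2 ratio by 0.07), 2.72 with Pax8 epithelium at 0.30% and 2.88 as a mean over nuclei. Chosen after seeing the data, leaving out the 81 nuclei of both rules gave 2.96 and leaving Dcdc2a out of the sum 4.19. Against the rest of the library (5.19) it became 5.11 at 0.30%, 5.15 under 5%, 5.17, 5.14 and 5.16 without Dnah9, Hydin and Cfap61, 5.37 without high doublet scores and 5.22 at the 95th percentiles. Axoneme genes at least 2-fold higher numbered 108 to 119, and duct genes at least 2-fold lower 7 to 13. Of 139 named genes at least 2-fold different, 119 were so under every alternative run for them. Catsper3 (log2 1.18) turned to -0.05 without Hydin in the rule, and Upk3b (-1.03) to 0.07 at the 95th percentiles, and the cause was not tested. Axoneme genes in free RNA of HF-HHT were 2601 CPM at ranks 90000 to 200000. The depth limits the regulators: genes with a few UMIs, such as Mcidas and Ccno, allow no ratio.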
